A study of Mus musculus with 24 samples.

Results

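The genes described here encode subunits of voltage-gated sodium and calcium channels and of the sodium leak channel. A list of 29 genes was searched among the 37621 gene entries of the count tables, and every one matched a single entry. A gene was kept where it had 10 or more counts in 3 or more of the 24 libraries, and 27 of the 29 were kept, from 17915 entries that met the same rule. The skeletal muscle sodium channel Scn4a, with 0 to 3 counts per library, and the retinal calcium channel Cacna1f, with 0 to 7 counts per library, were not kept.

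Total RNA depleted of ribosomal RNA was sequenced from dissected cerebellum, cortex, hippocampus and olfactory bulb of C57BL/6 mice. Each region had 3 wild-type libraries and 3 libraries from mice with a knockout of Cdr1as, a circular RNA of neurons that binds microRNAs. The labels used here give no age, no sex and no other allele or agent for either genotype. They number the libraries 1 to 3 without saying that these came from separate animals, and the p-values cover the variation among the sequenced libraries alone, part of which may be technical.

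Gene counts came to 5.18 to 30.46 M reads per library, and 3 libraries were shallow with fewer genes detected: cerebellum knockout 1 (6.5 M), olfactory bulb wild type 1 (7.4 M) and olfactory bulb knockout 2 (5.18 M). The genotype labels held for Cdr1as, which had 0 to 13 counts in each knockout library and a mean of 510 to 4126 CPM (the usual scaling of counts to library size, with TMM factors) in the wild-type groups. Summed markers of each region were highest in the libraries labelled with it, from 4030 to 4462 CPM for cerebellum markers against at most 222 CPM elsewhere, and from 826 to 911 CPM for olfactory bulb markers against at most 72.5 CPM. Cortex markers summed to 629 to 814 CPM in cortex against at most 250 CPM, and hippocampus markers to 604 to 739 CPM in hippocampus against at most 291 CPM. The share of reads that fell in no annotated feature ran from 20.3% in cortex wild type 1 to 62.9%, in olfactory bulb wild type 2.

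Voltage-gated sodium channels start and carry the action potential. Their pore-forming alpha subunit (Scn1a to Scn9a) is joined by beta subunits that adjust gating and placement in the membrane. Voltage-gated calcium channels turn depolarisation into calcium entry. Their alpha-1 pore sets the current type, P/Q, N and R types serving transmitter release, L types coupling to transcription and pacemaking, and T types opening near rest to support burst firing, while alpha-2-delta and intracellular beta subunits set how many channels reach the surface. Regions of the brain differ in which of these subunits their neurons use, cerebellar Purkinje and granule cells being the classical example for Cacna1a.

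In wild-type tissue 26 of the 27 subunits differed among the 4 regions (edgeR quasi-likelihood F-test, Benjamini-Hochberg adjusted p under 0.05), against 57.7% of all genes tested. The exception was Cacna2d4, whose adjusted p was 0.875 in edgeR. Pairs of regions were then compared in the same fit. Cerebellum and cortex differed for 20 subunits, of which 5 were higher and 15 lower in cerebellum. Of all genes 44.9% were called, 21.4% as higher and 23.5% as lower. Cerebellum and hippocampus differed for 21 subunits (9 higher and 12 lower in cerebellum), where 40.4% of all genes were called, 18.4% as higher and 22.0% as lower. Cerebellum and olfactory bulb differed for 23 (10 higher and 13 lower in cerebellum), where 35.3% of all genes were called, 16.3% as higher and 18.9% as lower.

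Cortex and hippocampus were the nearest pair, with 11 subunits called (8 higher and 3 lower in cortex) against 9.3% of all genes, 5.8% as higher and 3.5% as lower. This count was 7 without cortex wild type 1 and 7 without cortex wild type 3. The 5 hypothalamus markers summed to 43.1 and 28.0 CPM in those libraries and to at most 5.84 CPM in every other library. Of the 11 calls, 8 were kept without hippocampus wild type 1 and 8 without hippocampus wild type 2. Hypothalamus markers summed to 0.564 CPM in the former and 0.715 CPM in the latter. The markers' part in the count was not tested. Cortex and olfactory bulb differed for 17 subunits (11 higher and 6 lower in cortex), where 37.1% of all genes were called, 19.1% as higher and 18.0% as lower. Hippocampus and olfactory bulb differed for 18 (10 higher and 8 lower in hippocampus), where 32.6% of all genes were called, 17.5% as higher and 15.1% as lower. The median absolute log2 difference over the subunits was 1.61 between cerebellum and olfactory bulb, against 0.46 over all genes tested. It was 0.43 between cortex and hippocampus, against 0.26 over all genes. In these bulk samples, fewer cells of a type and less RNA per cell cannot be told apart.

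Of the 162 pairwise differences (27 subunits, 6 pairs of regions), 110 passed the test in wild type. The 12 knockout libraries, which were not used in that fit, gave the same direction for all 110 and passed the test for 101 of them. The region with the highest mean was the same in knockout as in wild type for 24 of 27 subunits, and the region with the lowest for 26 of 27.

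**Figure D1:**
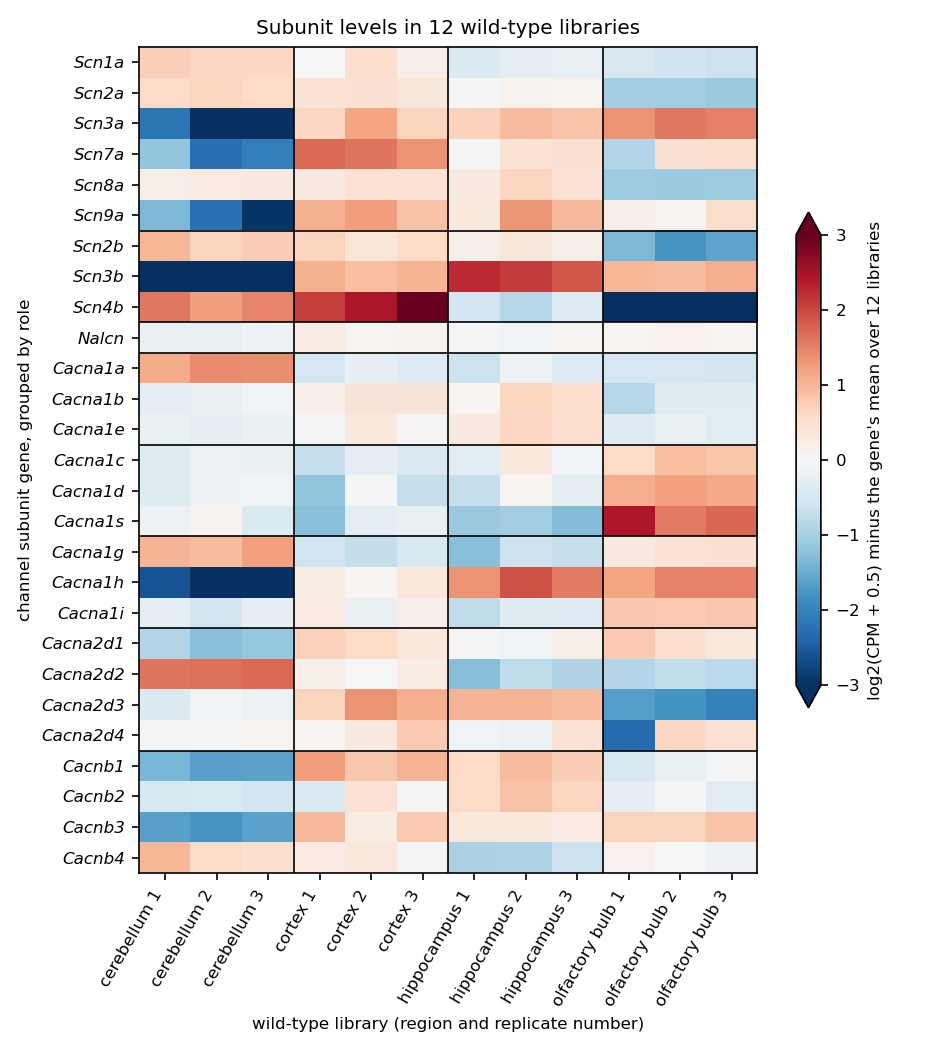
Level of each of the 27 subunits in the 12 wild-type libraries, as log2(CPM + 0.5) minus the gene's own mean over these libraries. Columns are libraries by region and replicate number, rows are genes grouped by role, red is above and blue below the gene's mean, and colours are clipped at the ends of the scale. Scn3a, Scn3b and Cacna1h are darkest blue in the 3 cerebellum columns, Scn4b is in the 3 olfactory bulb columns, and Nalcn stays near white throughout.

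Among the sodium channel pores, Scn2a, Scn8a and Scn1a made up most of the summed level per length in every region. Scn2a encodes the channel of unmyelinated axons and the initial segment, Scn8a that of mature initial segments and nodes, and Scn1a that of fast-spiking inhibitory neurons. Per kilobase (kb) of exon, the 6 kept pores summed to 138 CPM per kb in cerebellum, 135 in cortex, 115 in hippocampus and 65.1 in olfactory bulb. Scn2a held 49.9% ± 1.03 (SD, n = 3) of this sum in cerebellum and 33.2% ± 0.742 in olfactory bulb.

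Scn2a counted 855, 906 and 869 CPM in the 3 wild-type cerebellum libraries and 769, 787 and 731 CPM in cortex. Hippocampus had 558, 622 and 611 CPM, and olfactory bulb 282, 277 and 267 CPM. The olfactory bulb libraries lay below all others, and no cerebellum library overlapped a cortex library, although the difference between these 2 regions did not pass the test (log2 0.19, SE 0.09, edgeR adjusted p = 0.104). Scn2a was 3.14-fold higher in cerebellum than in olfactory bulb (log2 1.65, SE 0.10, edgeR adjusted p = 4.83e-09).

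Scn8a likewise was lowest in olfactory bulb, where the libraries had 223, 216 and 223 CPM, against 526 to 730 CPM in the other 9 wild-type libraries. Its fold against the olfactory bulb was 2.83 for hippocampus, 2.72 for cortex and 2.44 for cerebellum, and those 3 regions did not differ from each other in the test. Scn1a followed another order: cerebellum 396, 368 and 370 CPM, cortex 244, 335 and 270 CPM, hippocampus 181, 200 and 207 CPM, and olfactory bulb 171, 158 and 154 CPM. The cerebellum libraries were above all others, and only hippocampus and olfactory bulb were neighbours whose difference did not pass (edgeR adjusted p = 0.124). The difference of Scn1a between cerebellum and cortex (log2 0.41, edgeR adjusted p = 0.0103) lost its call when the fit included the percentage of unassigned reads (log2 0.19, adjusted p = 0.177).

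Scn3a, a sodium channel pore known for its high level before birth, ran against the other 3. Its olfactory bulb libraries had 162, 190 and 180 CPM, cortex 96.9, 145 and 101 CPM, and hippocampus 103, 122 and 115 CPM. In cerebellum the values were 13.8, 4.57 and 4.71 CPM. All cerebellum libraries were far below the rest, with library 1 standing above the other 2. Scn3a was 22.8-fold higher in olfactory bulb than in cerebellum (log2 4.51, SE 0.35, edgeR adjusted p = 1.71e-07), and it held 21.9% ± 1.69 of the pore sum per length in olfactory bulb against 0.448% ± 0.309 in cerebellum.

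Scn7a, which encodes a sodium-sensing relative that is not opened by voltage, was low everywhere, at 12.2, 11.3 and 9.48 CPM in cortex and 1.23, 0.309 and 0.423 CPM in cerebellum. Cortex was above each other region in the test, but the call against hippocampus (2.63-fold, edgeR adjusted p = 0.0473) was lost without each of the 3 cortex, the 3 hippocampus and 3 other libraries in turn, with adjusted p from 0.0538 to 0.150. The call against olfactory bulb (edgeR adjusted p = 0.0138) was lost once the no-feature share was a covariate (adjusted p = 0.0632). In the knockout libraries Scn7a had a mean of 8.64 CPM in cortex, 5.31 CPM in hippocampus and 6.63 CPM in olfactory bulb, and cortex did not pass the test against hippocampus (log2 0.69, SE 0.60, edgeR adjusted p = 0.727) or olfactory bulb (log2 0.40, SE 0.60, edgeR adjusted p = 0.694). Scn9a, a channel best known from pain-sensing neurons, had 6.55 to 8.62 CPM in cortex and at most 0.998 CPM in cerebellum, with 0 counts in cerebellum wild type 3, a depth at which 3 counts would be 0.183 CPM. It was lower in cerebellum than in each other region, by 15.1-fold against cortex (edgeR adjusted p = 8.95e-05).

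Cerebellum wild type 1 was the highest of its group for Scn3a, Scn7a and Scn9a, and also for the beta subunit Scn3b and the calcium channel Cacna1h. The same library had 59.1 CPM of the thalamic and midbrain marker Tcf7l2, against 11.9 and 12.8 CPM in the other 2. Tcf7l2 was the one gene of 5 in the list of thalamus markers to stand out there, and the list summed to 339 to 383 CPM in the 3 libraries. Cerebellum knockout 1, with 47.5 CPM of Tcf7l2, had 5.12 CPM of Scn3a, within the range of the other knockout libraries. The part of Tcf7l2-expressing tissue in these values was not tested. Without cerebellum wild type 1 the regional differences were larger: log2 5.26 in place of 4.51 for Scn3a and 4.68 in place of 3.06 for Scn9a against olfactory bulb, 4.87 in place of 3.96 for Scn7a against cortex, and 6.79 in place of 6.07 for Scn3b against hippocampus.

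Of the sodium channel beta subunits, Scn4b encodes one tied to resurgent current. Its regional range, log2 6.16 (SE 0.28), was close to that of Scn3b, at 6.07 (SE 0.31). Cortex had 142, 187 and 283 CPM, cerebellum 102, 80.6 and 92.7 CPM, hippocampus 22.3, 18.4 and 25.7 CPM, and olfactory bulb 2.61, 2.35 and 3.61 CPM. No library of one region overlapped a library of another, and all 6 pairwise differences passed the test. Cortex was 71.5-fold above olfactory bulb (edgeR adjusted p = 1.56e-09) and 2.24-fold above cerebellum (edgeR adjusted p = 0.000443).

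Scn4b is also a known gene of striatal neurons. The 7 striatum markers summed to 544 to 898 CPM in wild-type cortex and 504 to 817 CPM in knockout cortex, against at most 175 CPM in any library of the other regions. The dopamine receptor gene Drd1 had 37.1, 65.9 and 67.9 CPM in the 3 wild-type cortex libraries and at most 9.55 CPM in any library of the other regions. The part of striatal tissue in the cortical level of Scn4b was not tested.

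Scn3b, a beta subunit that forms no disulphide bond with the pore, had 331, 301 and 253 CPM in hippocampus, 147, 131 and 141 CPM in cortex and 139, 135 and 150 CPM in olfactory bulb. The cerebellum libraries had 7.19, 2.41 and 2.78 CPM. Hippocampus stood above every other library, cortex and olfactory bulb overlapped, and cerebellum stood below all. The fold between hippocampus and cerebellum was 67.3 (log2 6.07, SE 0.31, edgeR adjusted p = 1.92e-09), and the log2 difference was 6.79 without cerebellum wild type 1 and 6.72 in the knockout libraries. Against cortex the fold was 2.07 (edgeR adjusted p = 0.0125), a call lost without cortex wild type 3 (adjusted p = 0.0514).

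Scn2b, whose product is bound to the pore by a disulphide bond, had 494, 392 and 409 CPM in cerebellum, 390, 319 and 366 CPM in cortex and 281, 315 and 281 CPM in hippocampus. Olfactory bulb was lowest at 96.4, 72.6 and 81.6 CPM, 5.11-fold below cerebellum (log2 2.35, SE 0.13, edgeR adjusted p = 4.35e-09). Scn2b and Scn4b are neighbours on chromosome 9 in the GRCm38 annotation, on the same strand at chr9:45117782-45130070 and chr9:45138395-45154152, and both were lowest in olfactory bulb. Scn4b fell 9.41-fold from cortex to hippocampus, where Scn2b was 1.25-fold lower without passing the test (edgeR adjusted p = 0.147), and the difference between these falls was not tested.

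The make-up of the beta family differed across regions. Scn2b was 82.9% ± 0.701 of the family's level per length in cerebellum and 40.3% ± 3.48 in olfactory bulb, while Scn3b was 0.647% ± 0.331 in cerebellum and 58.4% ± 3.35 in olfactory bulb. Scn4b ran from 28.2% ± 7.38 in cortex to 1.29% ± 0.260 in olfactory bulb.

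Nalcn, the leak channel that sets resting excitability, varied least of all subunits that passed. It had 151 to 160 CPM in cerebellum, 188 to 206 in cortex, 165 to 189 in hippocampus and 189 to 194 in olfactory bulb. The cerebellum libraries stood below the others, but hippocampus did not pass the test against cerebellum (log2 0.15, SE 0.10, edgeR adjusted p = 0.219). The difference between cerebellum and cortex was 1.28-fold (log2 0.35, SE 0.10, edgeR adjusted p = 0.00811). The knockout libraries gave 0.16 for the same difference, with adjusted p = 0.175. Against olfactory bulb (log2 0.32, edgeR adjusted p = 0.0155) the call was lost without cerebellum wild type 1, cerebellum wild type 2 or olfactory bulb wild type 2, with adjusted p from 0.0568 to 0.0608.

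**Figure D2:**
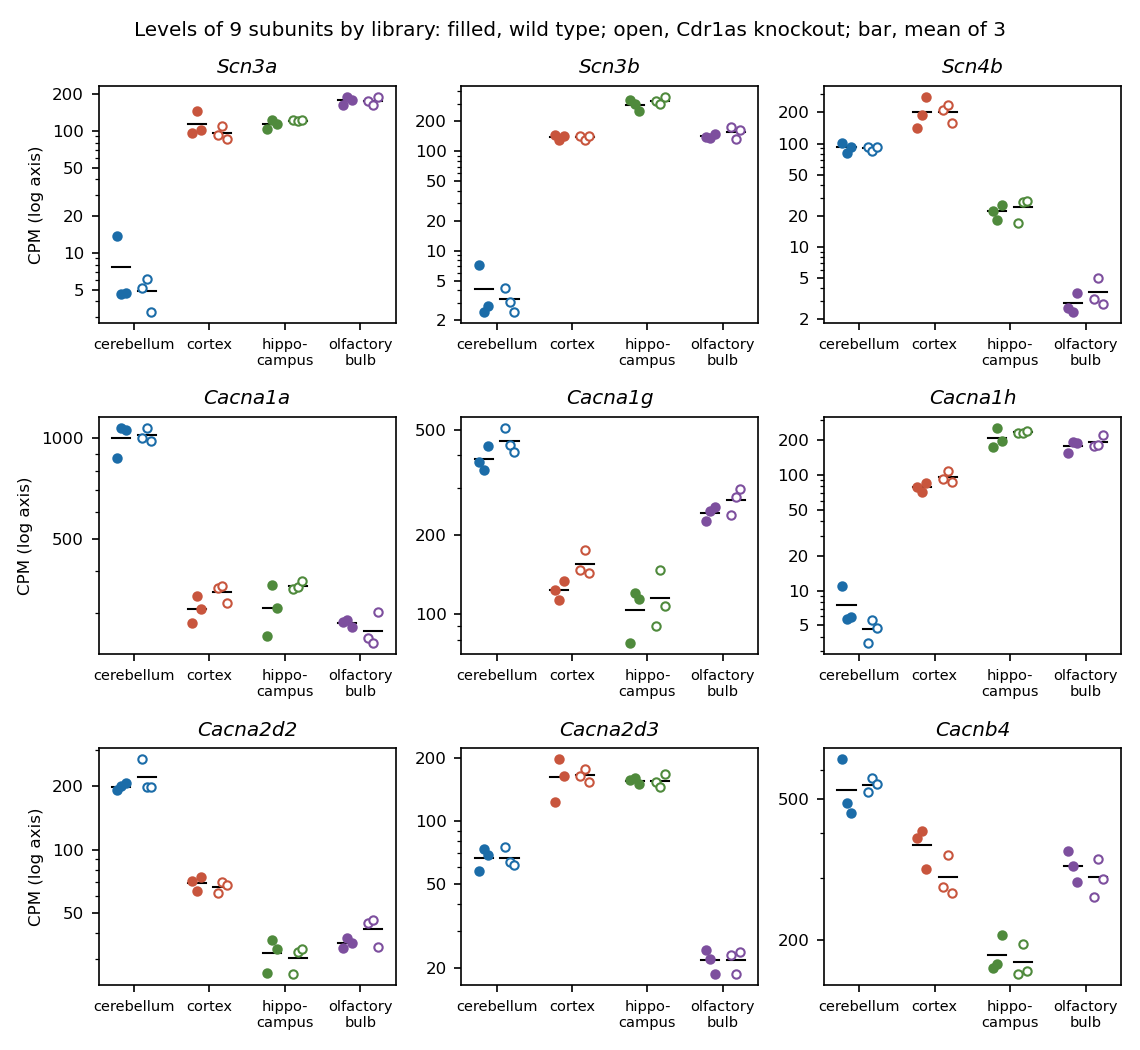
CPM of 9 subunits in every library on log axes, by region, with wild-type libraries filled, knockout libraries open and a bar at the mean of 3. Cacna1a, Cacna1g, Cacna2d2 and Cacnb4 sit highest in cerebellum, Scn3a, Scn3b and Cacna1h lowest there, and open and filled points of a region lie at similar heights.

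Among the calcium channel pores of the P/Q, N and R types, Cacna1a set the cerebellum apart. The P/Q-type pore Cacna1a, mutated in ataxia and hemiplegic migraine, had 874, 1076 and 1062 CPM in cerebellum. It had 279, 338 and 308 CPM in cortex, 256, 363 and 310 CPM in hippocampus and 281, 285 and 273 CPM in olfactory bulb. The cerebellum libraries were above all 9 others, which overlapped each other. Cerebellum exceeded olfactory bulb 3.55-fold (log2 1.83, SE 0.14, edgeR adjusted p = 1.21e-07), hippocampus 3.29-fold and cortex 3.24-fold. Per length, Cacna1a was 43.7% ± 2.93 of the calcium channel pores in cerebellum, 19.9% ± 0.658 in cortex, 17.4% ± 0.267 in hippocampus and 13.4% ± 0.785 in olfactory bulb.

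The N-type pore Cacna1b, the target of omega-conotoxin, and the R-type pore Cacna1e were highest in hippocampus and lowest in olfactory bulb. Cacna1b had 199, 293 and 270 CPM in hippocampus against 103, 145 and 144 CPM in olfactory bulb, a 1.89-fold difference (edgeR adjusted p = 0.00065). Cacna1e had 800, 1025 and 938 CPM in hippocampus and 509, 567 and 535 CPM in olfactory bulb, a 1.67-fold difference (edgeR adjusted p = 0.000301). Hippocampus and cortex did not pass the test for either gene (edgeR adjusted p = 0.787 and 0.0972), nor did cerebellum and olfactory bulb (0.195 and 0.757). The difference of Cacna1e between cerebellum and cortex (1.26-fold, edgeR adjusted p = 0.0373) was lost in 6 of the 12 fits that left out 1 library.

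The L-type pores were highest in olfactory bulb. Cacna1c, the main L-type pore of heart and brain, had 344, 422 and 401 CPM there against 141 to 276 CPM in the other 9 wild-type libraries. It exceeded cortex 2.41-fold (log2 1.27, SE 0.16, edgeR adjusted p = 2.83e-05), cerebellum 2.08-fold and hippocampus 1.78-fold, and those 3 regions did not differ from each other. Cacna1d, an L-type pore that opens at more negative voltages, had 355, 393 and 369 CPM in olfactory bulb. Elsewhere it had 130, 150 and 155 CPM in cerebellum, 73.7, 164 and 103 CPM in cortex and 103, 174 and 139 CPM in hippocampus. The olfactory bulb libraries were above all others, and the cortex and hippocampus libraries spread widely. Against cortex the fold was 3.31 (log2 1.73, SE 0.25, edgeR adjusted p = 8.98e-05).

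The spread of Cacna1d within cortex followed the share of reads in no feature, a class that holds intronic and intergenic reads. In order of that share, the 6 cortex libraries had 73.7 CPM at 20.3% (wild type 1), 110 CPM at 30.5% (knockout 1), 111 CPM at 33.6% (knockout 3), 103 CPM at 34.9% (wild type 3), 152 CPM at 53.8% (knockout 2) and 164 CPM at 56.2% (wild type 2). Cacnb3 ran the other way in those libraries, at 215, 261, 207, 187, 179 and 126 CPM. In hippocampus wild type 1, with 37.0% of reads in no feature against 48.3% to 55.5% in the other 5 libraries, Cacna1d had 103 CPM against 139 to 174 CPM in the other 5. With the share as a covariate, an alternative added after the data were seen, the difference of Cacna1d between olfactory bulb and cortex was log2 1.02 (SE 0.16, edgeR adjusted p = 0.000229) in place of 1.73. Olfactory bulb libraries all lay between 52.3% and 62.9%, so the share moved with the region.

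**Figure D3:**
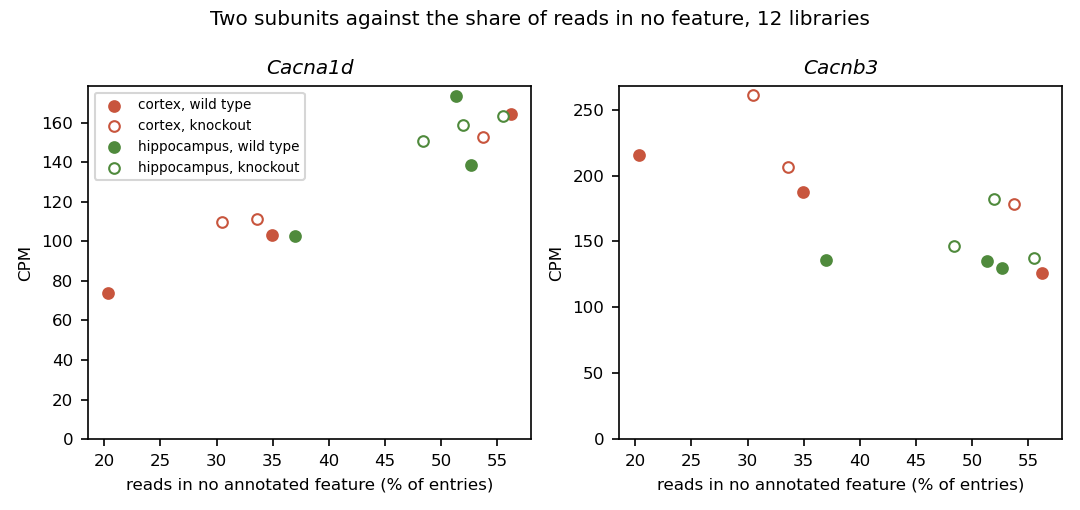
CPM of Cacna1d (left) and Cacnb3 (right) against the percentage of reads in no annotated feature in the 12 cortex and hippocampus libraries, wild type filled and knockout open. Cacna1d points climb from 73.7 CPM at the lowest share, and Cacnb3 points of the cortex descend from 261 CPM at 30.5% to 126 CPM at the highest share.

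Cacna1s, the L-type pore of skeletal muscle, was low but measurable in olfactory bulb, at 10.1, 5.29 and 5.99 CPM, against 0.292 to 1.61 CPM in the other 9 wild-type libraries. Olfactory bulb was 18.7-fold above hippocampus (log2 4.22, SE 0.49, edgeR adjusted p = 1.17e-05). The 7 skeletal muscle markers summed to 2.23 to 4.61 CPM in these olfactory bulb libraries and to 7.59 to 9.42 CPM in wild-type cortex, where Cacna1s was at most 1.17 CPM. Their part in the level of Cacna1s was not tested. In the knockout libraries olfactory bulb was not above cerebellum for Cacna1s in the test (adjusted p = 0.319), where cerebellum knockout 1, a shallow library, had 5.70 CPM against 1.17 and 1.24 CPM in the other 2.

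The 3 T-type pores each had their own order. Cacna1g had 376, 352 and 434 CPM in cerebellum, 225, 245 and 255 CPM in olfactory bulb, 123, 113 and 133 CPM in cortex and 77.7, 120 and 114 CPM in hippocampus. Cerebellum and olfactory bulb libraries overlapped no other region, and cortex and hippocampus overlapped each other. Cerebellum was 3.78-fold above hippocampus (log2 1.92, SE 0.16, edgeR adjusted p = 2.55e-07).

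Cacna1h had the ends of that order exchanged, with its highest mean in hippocampus and lowest in cerebellum, while olfactory bulb again exceeded cortex. It had 174, 257 and 198 CPM in hippocampus, 155, 193 and 191 CPM in olfactory bulb, 79.2, 70.9 and 84.6 CPM in cortex and 10.9, 5.68 and 5.86 CPM in cerebellum. Hippocampus and olfactory bulb overlapped, and cerebellum was 27.1-fold below hippocampus (log2 4.76, SE 0.25, edgeR adjusted p = 1.75e-09). Cacna1i, the third T-type pore, was highest in olfactory bulb at 321, 319 and 324 CPM, 2.53-fold above hippocampus (log2 1.34, SE 0.15, edgeR adjusted p = 7.48e-06). Within the pore family per length, Cacna1g was 19.0% ± 1.57 in cerebellum and 6.55% ± 0.530 in hippocampus, while Cacna1h was 0.389% ± 0.181 and 13.8% ± 0.866.

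The alpha-2-delta subunits, the binding partners of gabapentin in the case of Cacna2d1 and Cacna2d2, split by region. Cacna2d2, whose loss gives the ducky mouse its ataxia, had 192, 201 and 207 CPM in cerebellum, 70.6, 63.6 and 74.4 CPM in cortex, 25.8, 37.2 and 33.7 CPM in hippocampus and 34.1, 37.8 and 36.0 CPM in olfactory bulb. Cerebellum stood above cortex and cortex above the last 2 regions, which overlapped. Cacna2d2 was 6.30-fold higher in cerebellum than in hippocampus (log2 2.66, SE 0.14, edgeR adjusted p = 2.78e-09).

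Cacna2d3 and Cacna2d1 differed most in olfactory bulb. Cacna2d3 had 24.3, 22.0 and 18.6 CPM there, against 124, 198 and 165 CPM in cortex, 156, 160 and 151 CPM in hippocampus and 58.0, 73.6 and 68.6 CPM in cerebellum. It was 7.44-fold lower in olfactory bulb than in cortex (log2 2.90, SE 0.17, edgeR adjusted p = 1.76e-08). Cacna2d1, in contrast, had 485, 392 and 350 CPM in olfactory bulb and 452, 423 and 349 CPM in cortex, with hippocampus at 288, 259 and 315 CPM and cerebellum lowest at 151, 118 and 127 CPM. Its olfactory bulb and cortex libraries overlapped (1.01-fold, edgeR adjusted p = 0.959), and olfactory bulb was 3.14-fold above cerebellum (edgeR adjusted p = 3.07e-07). In the knockout libraries Cacna2d1 in hippocampus did not differ from cortex (adjusted p = 0.92) or olfactory bulb (adjusted p = 0.418). Both of those calls were made in wild type.

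The promoters of this pair are shown because the genes share a role and part company in olfactory bulb. The pair was chosen after its values were seen, from single-start members whose windows hold no annotated exon. Each is the 250 bases before the RefSeq start in GRCm38.p6, 5′ to 3′ on the gene's own strand, with GC boxes (GGGCGG, or CCGCCC as read on the other strand, overlapping matches included) in capitals.
Cacna2d3: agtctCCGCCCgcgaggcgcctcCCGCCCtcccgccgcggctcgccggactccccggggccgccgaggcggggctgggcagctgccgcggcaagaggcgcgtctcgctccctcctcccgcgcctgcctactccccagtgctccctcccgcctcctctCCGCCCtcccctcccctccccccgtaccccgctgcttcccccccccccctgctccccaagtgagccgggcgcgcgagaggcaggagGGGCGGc
Cacna2d1: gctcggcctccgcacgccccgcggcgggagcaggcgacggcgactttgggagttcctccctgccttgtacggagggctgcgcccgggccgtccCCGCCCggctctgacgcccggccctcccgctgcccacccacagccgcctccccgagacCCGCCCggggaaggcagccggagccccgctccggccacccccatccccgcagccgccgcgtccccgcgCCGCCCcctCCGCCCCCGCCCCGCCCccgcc

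The Cacna2d3 window lies at chr14:29721865-29722114 on the minus strand and holds 4 GC boxes, 30 CG dinucleotides and 80.0% G or C. The Cacna2d1 window lies at chr5:15934441-15934690 on the plus strand and holds 6 GC boxes, 36 CG dinucleotides and 82.4% G or C. Neither window holds TATAAA on either strand. Of 31 listed promoters of the subunits, 38.7% held a GC box and 6.45% a TATAAA, against 32.7% and 12.4% of the 32851 promoters in the RefSeq table. The table listed promoters for 21 of the 27 subunits. These matches are descriptions of sequence, and binding was not measured.

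Cacna2d4, the fourth alpha-2-delta gene and known from the retina, was low in every region. It had 1.69 to 3.70 CPM in 11 of the 12 wild-type libraries and 0 counts in olfactory bulb wild type 1. The other libraries with 0 counts were cerebellum knockout 1 and olfactory bulb knockout 2, the remaining shallow libraries, where 3 counts would be 0.462 and 0.580 CPM. Per length, Cacna2d2 was 57.6% ± 1.46 of the alpha-2-delta family in cerebellum and Cacna2d1 was 81.8% ± 2.48 in olfactory bulb, with Cacna2d3 at 39.5% ± 2.59 in hippocampus and 6.18% ± 0.225 in olfactory bulb.

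Calcium channel beta subunits, which bind the pore inside the cell and bring it to the membrane, differed among themselves in their order of regions, with Cacnb4 highest in cerebellum and the lowest means of the other 3 there. Cacnb4, mutated in the lethargic mouse, had 646, 487 and 457 CPM in cerebellum, 387, 405 and 317 CPM in cortex, 356, 324 and 292 CPM in olfactory bulb and 167, 171 and 207 CPM in hippocampus. Hippocampus lay below every other library, and cortex and olfactory bulb overlapped. Cerebellum was 2.95-fold above hippocampus (log2 1.56, SE 0.14, edgeR adjusted p = 6.99e-07). Its call against cortex (1.42-fold, edgeR adjusted p = 0.00905) was lost without cerebellum wild type 1 (adjusted p = 0.052), the highest library, without cortex wild type 3 (adjusted p = 0.0526) and in the fit with the no-feature share as covariate (log2 0.45, adjusted p = 0.0563).

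Cacnb1 and Cacnb3 were lowest in cerebellum. Cacnb1, the beta subunit of skeletal muscle that is also expressed in brain, had 25.7, 21.3 and 21.9 CPM there and 161, 119 and 137 CPM in cortex, 6.09-fold more (log2 2.61, SE 0.16, edgeR adjusted p = 1.28e-08). Hippocampus had 102, 131 and 113 CPM and olfactory bulb 47.9, 58.4 and 64.8 CPM. Only cortex and hippocampus overlapped among these groups. Cacnb3 had 34.7, 31.7 and 35.3 CPM in cerebellum and 172, 173 and 196 CPM in olfactory bulb, 5.40-fold more (log2 2.43, SE 0.17, edgeR adjusted p = 2.96e-08).

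Cacnb2, the main cardiac beta subunit, was highest in hippocampus at 107, 134 and 113 CPM, against 49.0 to 52.7 CPM in cerebellum, a 2.27-fold difference (edgeR adjusted p = 0.000107). Its call against cortex (1.55-fold, edgeR adjusted p = 0.0409) was lost in 10 of the 12 fits that left out 1 library. The smallest value of that difference was log2 0.43, without cortex wild type 1. Per length, Cacnb4 was 77.0% ± 2.63 of the beta family in cerebellum, and Cacnb3 had the highest mean share in olfactory bulb (45.7% ± 2.74), hippocampus (38.0% ± 2.41) and cortex (35.8% ± 6.29, within the SD of the 34.2% ± 5.91 for Cacnb4). With the longest transcript as the length, Cacnb4 was 68.4% in cerebellum, and Cacnb2 moved from 5.13% to 11.0% there and from 10.1% to 18.2% in hippocampus.

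**Figure D4:**
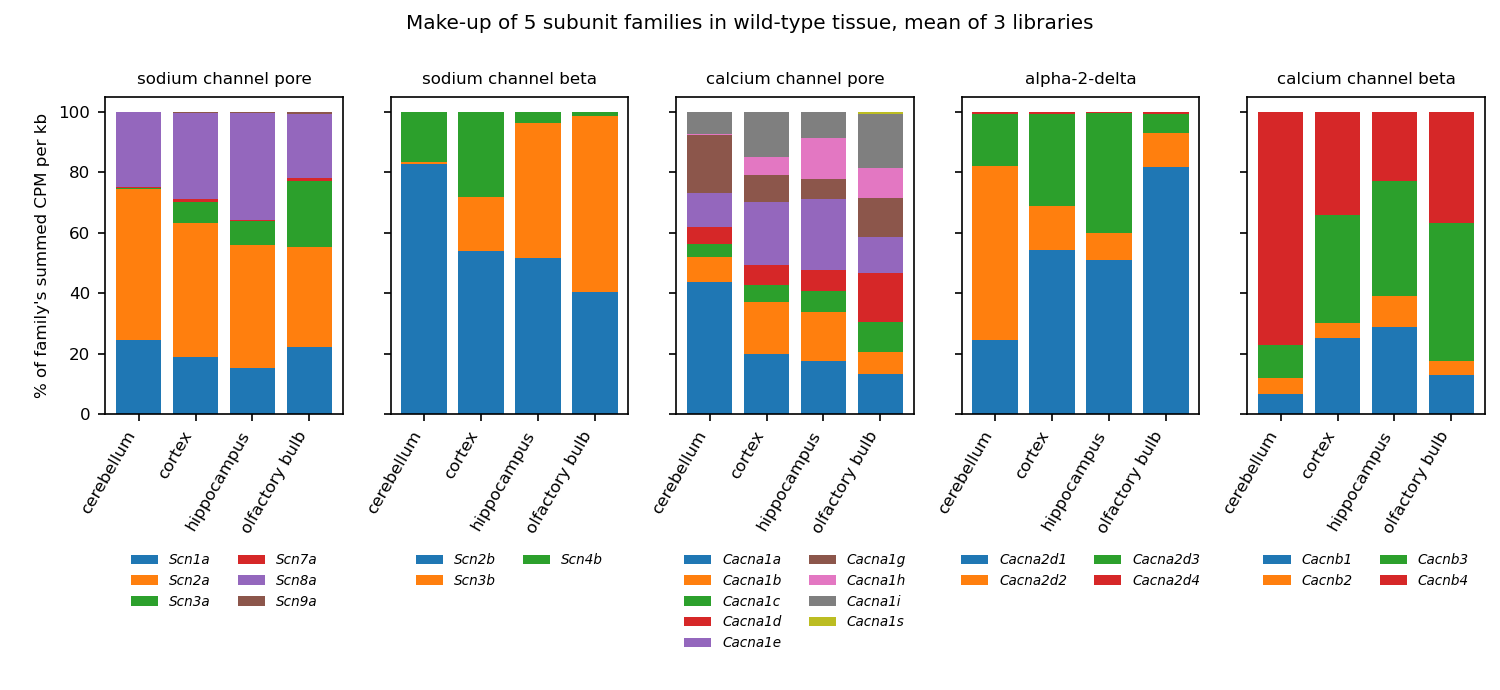
Percentage of each family's summed CPM per kb of exon held by each member in wild-type tissue, as stacked means of 3 libraries for 5 families and 4 regions. The cerebellum bar is dominated by Scn2b (82.9%), Cacna1a (43.7%), Cacna2d2 (57.6%) and Cacnb4 (77.0%), and the olfactory bulb bar by Cacna2d1 (81.8%) and Scn3b (58.4%).

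Across roles, the subunits above every other region in the test were Scn1a, Cacna1a, Cacna1g, Cacna2d2 and Cacnb4 in cerebellum, against 8.46% of all genes. They were Cacna1c, Cacna1d, Cacna1i and Cacna1s in olfactory bulb (5.88% of all genes), Scn7a and Scn4b in cortex (2.33%), and Scn3b and Cacnb2 in hippocampus (1.64%). The subunits below every other region were Scn3a, Scn7a, Scn9a, Scn3b, Cacna1h, Cacna2d1, Cacnb1 and Cacnb3 in cerebellum (10.2% of all genes), Scn2a, Scn8a, Scn2b, Scn4b and Cacna2d3 in olfactory bulb (5.45%), Cacnb4 in hippocampus (1.3%) and none in cortex (0.648%). In cerebellum a pore (Cacna1a), an alpha-2-delta subunit (Cacna2d2) and a beta subunit (Cacnb4) were thus each above every other region. The call of Cacnb4 against cortex was lost in some alternative fits, as given above. For Scn1a, Cacna1s, Scn7a, Scn3b and Cacnb2, a call behind this placing was likewise lost in some alternative fit.

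The counting bears on some of these genes. Of the 29 listed genes, 9 share exon sequence with a gene on the opposite strand in the GRCm38 annotation: Scn9a, Cacna1a, Cacna1d, Cacna1h, Cacna1s, Cacna2d2, Cacnb1, Cacnb2 and Cacnb4. The shared part is largest for Cacna1s (19.98% of its exon length, with Gm37759) and Cacnb4 (15.99%, with A430018G15Rik), and 3.81% for Cacna1a. The libraries were stranded, but whether the counting used strand is not given in the sources used here. Levels of these genes are uncertain for that reason, and the shared length does not bound the error. Gm37759 has no entry of its own in the count tables.

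In the knockout comparison the question was whether channel subunits change when Cdr1as is lost. None of the subunits passed the test in any region in edgeR: 0 of 26 in cerebellum, 0 of 27 in cortex, 0 of 26 in hippocampus and 0 of 27 in olfactory bulb. The share of all genes called was 0.00644% in cerebellum, 0.00634% in cortex, 0.0062% in hippocampus and 0.0253% in olfactory bulb. DESeq2 also called 0 subunits in each region. The lowest adjusted p of a subunit was 0.949, 0.858, 0.953 and 0.992 in that order of regions. At an unadjusted p under 0.05 there were 0, 1, 0 and 1 subunits, against 1.89%, 5.64%, 4.01% and 2.43% of all genes. Scn9a in cerebellum and Cacna1s in hippocampus had too few counts to be tested.

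The 95% interval of the fold change lay within 1.5-fold either way for 20 of 26 subunits in cerebellum, 15 of 27 in cortex, 22 of 26 in hippocampus and 21 of 27 in olfactory bulb. Among them were the pores Scn1a, Scn2a, Scn8a, Cacna1a, Cacna1b, Cacna1c and Cacna1e in all 4 regions. The standard error of a log2 fold change had a median of 0.11 in cerebellum, 0.15 in cortex, 0.12 in hippocampus and 0.12 in olfactory bulb, and was largest for the low genes Cacna2d4, Scn7a and Cacna1s.

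**Figure D5:**
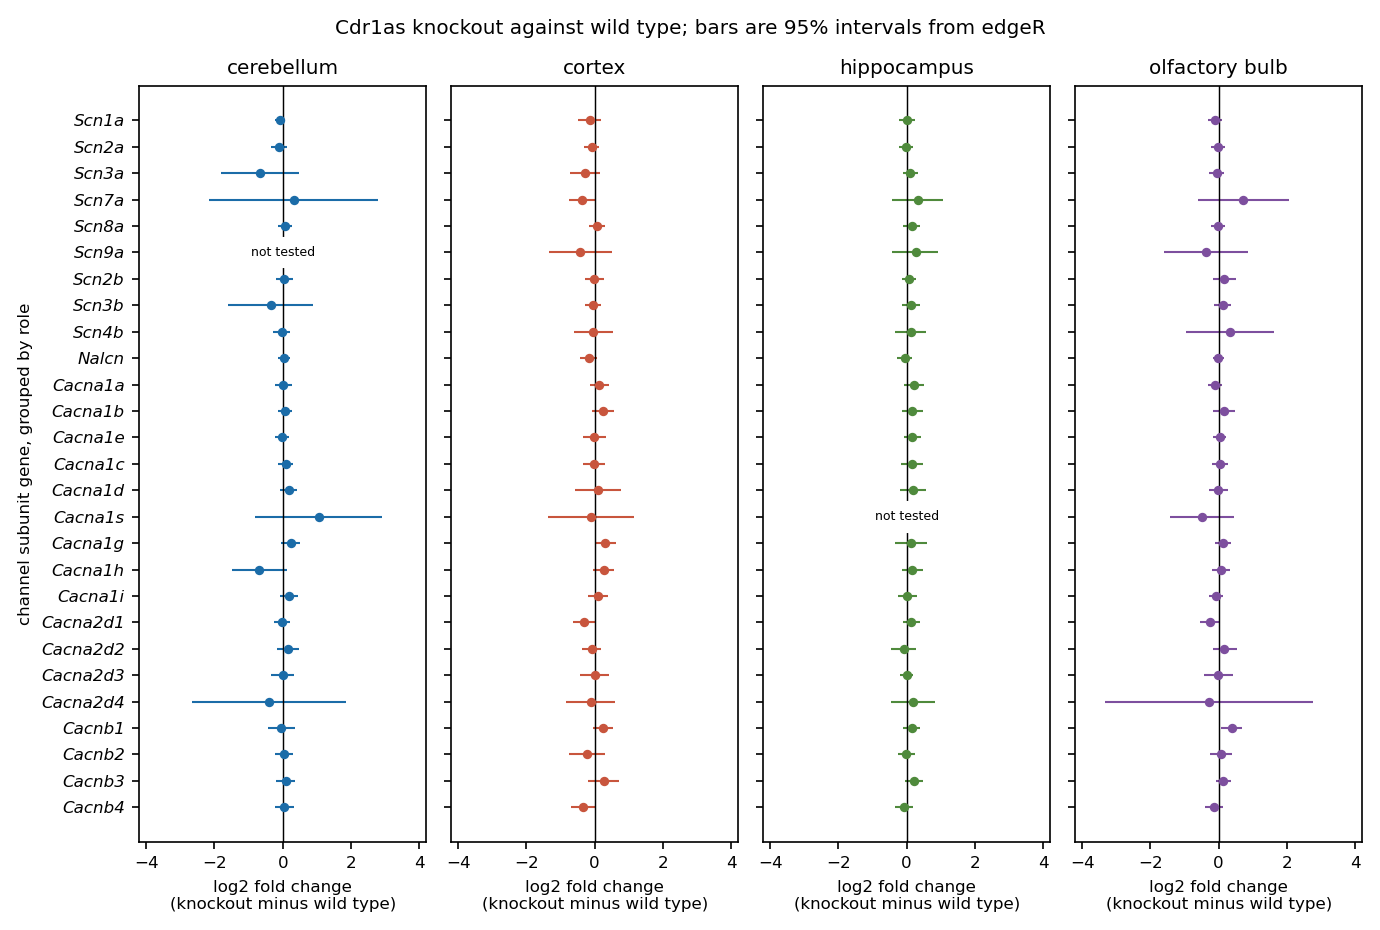
Log2 fold change of knockout against wild type for each subunit in the 4 regions, with 95% intervals derived from the edgeR F-test. Points lie near 0 with intervals that mostly span it, and the widest intervals belong to Cacna2d4, Scn7a and Cacna1s.

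The 2 subunits past the unadjusted threshold were Cacnb1 in olfactory bulb and Cacna1g in cortex. Cacnb1 had 75.0, 79.9 and 75.3 CPM in knockout and 47.9, 58.4 and 64.8 CPM in wild-type olfactory bulb. These groups did not overlap, the lowest value being the shallow wild-type library. The log2 difference was 0.39 (SE 0.14, unadjusted p = 0.0176 and adjusted p = 0.992 in edgeR), and it was 0.24 without both shallow libraries. In the other regions Cacnb1 differed by log2 -0.04 in cerebellum, 0.24 in cortex and 0.15 in hippocampus.

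Cacna1g had 147, 175 and 143 CPM in knockout and 123, 113 and 133 CPM in wild-type cortex, again without overlap. The log2 difference was 0.31 (SE 0.13, unadjusted p = 0.0467 and adjusted p = 0.858 in edgeR), and 0.18 without cortex knockout 2. Next in cortex was Scn7a, at 8.13 to 9.11 CPM in knockout and 9.48 to 12.2 CPM in wild type (log2 -0.37, SE 0.17, edgeR adjusted p = 0.858). The fully separated groups numbered 5 of 27 subunits in cortex, 2 of 26 in cerebellum, 1 of 26 in hippocampus and 1 of 27 in olfactory bulb. Over all genes tested such separation was seen for 13.5%, 11.4%, 9.62% and 12.2%.

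In cerebellum the smallest p-values belonged to Cacna1h and Cacna1g. Cacna1h had 3.51, 5.57 and 4.80 CPM in knockout against 10.9, 5.68 and 5.86 CPM in wild type (log2 -0.68, SE 0.35, edgeR adjusted p = 0.949), and the difference was -0.33 without cerebellum wild type 1, the library that stood high for Tcf7l2. Cacna1g differed by log2 0.23 (SE 0.12, edgeR adjusted p = 0.949). In hippocampus they belonged to Cacnb3 (log2 0.21, SE 0.12, and 0.09 without hippocampus knockout 1) and Cacna1a (log2 0.22, SE 0.13, and 0.10 without hippocampus wild type 1). In olfactory bulb the one after Cacnb1 was Cacna2d1 (log2 -0.26, SE 0.13, and -0.12 without olfactory bulb wild type 1).

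The median log2 difference over the subunits was 0.04 in cerebellum, -0.04 in cortex, 0.14 in hippocampus and -0.01 in olfactory bulb, against -0.04, 0.0, -0.02 and -0.01 over all genes tested. In hippocampus 20 of 26 subunits had a fitted log2 difference above 0, against 46.2% of all genes. The lean was not particular to the subunits: of 26 other channel genes tested there (listed below), 22 were above 0 and 4 below. Hippocampus wild type 1, the library with 37.0% of reads in no feature, had a median log2 deviation of -0.23 over 23 subunits from the median of the 6 hippocampus libraries, and the choroid plexus gene Ttr at 2174 CPM. Ttr was also high in hippocampus wild type 3 (1632 CPM) and at most 7.68 CPM in the other 4 libraries, and the part of these differences in the hippocampal median was not tested. Of the 25 subunits tested in all regions, Cacna1b, Cacna1g and Cacnb3 had a fitted log2 difference above 0 in each region and Scn2a one below 0 in each. For Scn2a it ran from -0.11 (SE 0.10) in cerebellum to -0.01 (SE 0.09) in hippocampus, and in olfactory bulb it was -0.02 (SE 0.09) with means of 278 CPM in knockout and 276 CPM in wild type. None of these differences passed the test in edgeR.

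Whether the knockout difference itself varied among regions was tested as an interaction over all 24 libraries. In edgeR 0 of 27 subunits passed, against 0.00558% of all genes, and DESeq2 also called 0. The smallest unadjusted p was 0.0155 for Cacna1h, the one subunit under 0.05, where 1.51% of all genes were.

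A list of 31 other channel genes (remaining sodium channel pores and beta subunit, gamma subunits, FHF factors, Nalcn partners, scaffold and active-zone genes) was read the same way, and 29 were tested. In wild type 28 of the 29 differed among regions and Ank3, the ankyrin that anchors sodium channels at the axon initial segment, did not. Ank3 also had the smallest regional range, from 684 ± 32.4 CPM in cerebellum to 541 ± 12.4 CPM in olfactory bulb (log2 0.32, SE 0.13, edgeR adjusted p = 0.072). Scn10a had 0 counts in the 3 wild-type cerebellum libraries and 0.664 ± 0.410 CPM in cortex, at least 13.9-fold higher when 3 counts over the cerebellum group are taken as the floor. In the knockout comparisons 0 of these genes passed in edgeR, of 25 tested in cerebellum, 26 in cortex, 26 in hippocampus and 27 in olfactory bulb, and 0, 2, 1 and 0 were under an unadjusted p of 0.05.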

How the data were processed

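Total RNA was extracted with TRIzol, depleted of ribosomal RNA with RNase H and made into libraries with a stranded TruSeq kit, per the labels' protocols. The deposited values were raw read counts per Ensembl gene, with 1 table per library. The submitters' processing notes name bcl2fastq 2.17.1.14, STAR 2.5.1b, HTSeq 0.6.1p1 and the build mm9, and whether the counting used strand is not given in the sources used here. Summary rows that name no gene were left out of library sizes. Symbols were matched for 32897 of 37620 Ensembl identifiers, and for every listed subunit.

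Counts were tested with edgeR 4.0.16 in R 4.3.3 (limma 3.58.1), by quasi-likelihood F-tests after TMM scaling, with Benjamini-Hochberg adjustment over all genes and a threshold of 0.05, two-sided. The regional comparisons used the 12 wild-type libraries. The knockout comparisons used the 6 libraries of a region and genes with a minimum count of 10, and the interaction used all 24. DESeq2 1.42.0 and other settings were run as alternatives. CPM was scaled by TMM over all 24 libraries, and levels per kb used the union of exons in the GRCm38 annotation, with the longest transcript as an alternative. Promoter sequences came from RefSeq, build GRCm38.p6. The code was tested on simulated data. The members, the gene lists and the rule for naming genes were chosen with earlier results of these data known. All listed members were to be named, with full knockout statistics for those with an unadjusted p under 0.05 or the 2 smallest p. Of the other channel genes, those with the largest and smallest regional range were to be named, and the former is not reported here.

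Replicate numbers were checked for pairing by correlating the deviations of same-numbered knockout and wild-type libraries from their group means. In cortex all 3 pairs exceeded 0.1 (r = 0.391, 0.522 and 0.101), and in the other regions they did not. Cortex knockout 3 correlated more with wild type 1 (r = 0.285) than with wild type 3, so the numbers did not clearly pair the cortex libraries. Among wild-type libraries of different regions, same-numbered pairs all exceeded 0.1 between cerebellum and cortex (r = 0.359, 0.313 and 0.288) and between cortex and olfactory bulb (r = 0.126, 0.183 and 0.133), and not between the other regions. The labels do not say what a number marks.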

Additional observations from a re-analysis of the deposited data

How the results depend on the processing

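All 110 regional differences called in wild type kept their direction under every alternative run, and 101 to 110 of them kept their call. Leaving out 1 library at a time gave 25 to 26 subunits that differed among regions, 15 to 20 between cerebellum and cortex, 21 to 22 between cerebellum and hippocampus, 22 to 23 between cerebellum and olfactory bulb, 7 to 13 between cortex and hippocampus, 16 to 18 between cortex and olfactory bulb and 17 to 19 between hippocampus and olfactory bulb. The count of 7 between cortex and hippocampus came without cortex wild type 1 or cortex wild type 3, and the cause was not tested. With the longest transcript as the length, 57 family shares moved by more than their SD and 47 did not. The largest share passed from Scn2b to Scn3b (51.3%) and from Cacna2d1 to Cacna2d3 (48.6%) in hippocampus, and from Cacna1i to Cacna1d (16.2%) in olfactory bulb. In all, 13 called differences lost the call without some 1 library, and 12 moved by over 1.5-fold. The covariate of reads in no feature was added to the wild-type fit after the data were seen, and 106 of the 110 calls held with it. Every alternative of the knockout comparisons and of the interaction, leave-one-out included, called 0 subunits.

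With the replicate number as a block, 26 subunits differed among regions, and the pairs of regions gave 21, 21, 24, 13, 17 and 18 in the order above. The block gave 0 calls for knockout against wild type in each region, cortex included. In cortex the numbers did not clearly pair the libraries, as given above. Low counts limit Scn7a, Scn9a, Cacna1s and Cacna2d4.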
